A study of Arabidopsis thaliana with 12 samples.

Results

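The nuclear genes for the chlorophyll-binding antenna proteins and for the subunits of photosystems I and II were examined in Arabidopsis thaliana seedlings. The members are the nuclear LHCA, LHCB, PSA and PSB genes, chosen by name and gene identifier. No measured value entered that rule, but earlier results of these data were known when the members were chosen. They number 43 of the 32833 genes in the count tables, of which 42 had counts in any library and passed the filter on low counts. By role they are 6 antenna genes of photosystem I, 9 major and 6 minor antenna genes of photosystem II, 12 subunit genes of photosystem I and 10 subunit genes of photosystem II.

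RNA sequencing covered 4 groups of 3 libraries, each from seedlings taken 12 days after germination. Experiment 1 (Group1 in the sample titles) held wild-type Columbia-0 (Col-0) and libraries labelled hira-1. Experiment 2 (Group2) held another Col-0 set and fas2-4. All plants shared the same regime, a soil mixture and long days at about 21 °C, with seeds kept for 4 days at 4 °C beforehand. HIRA is a chaperone for the histone variant H3.3, FAS2 belongs to the CAF-1 histone chaperone complex, and a single allele stands for each gene. The series title asks whether CAF-1 takes part in placing H3.3. Mutant libraries were compared with Col-0 from the same experiment.

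Antenna proteins bind chlorophyll in the thylakoid membrane and pass excitation energy to the photosystem reaction centres, where photosystem II splits water and photosystem I reduces ferredoxin. The reaction-centre cores are encoded in the plastid genome, whereas the antenna proteins and many peripheral subunits are encoded in the nucleus and imported. In green seedlings these nuclear genes are among the most highly expressed and respond to light. Some are present as several copies, a few of them near-identical.

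Total counts were 20700171 to 21902258 per library in experiment 1 and 39258873 to 39510509 in experiment 2. HIRA had 235, 286 and 454 counts in the libraries labelled hira-1 beside 223, 300 and 203 in Col-0, so its transcript level does not mark these libraries as mutant. FAS2 had 197, 207 and 281 counts in fas2-4 and 273, 286 and 253 in Col-0. These overlap, so the FAS2 transcript level does not mark the fas2-4 libraries as mutant either. In fas2-4, replicate 1 stood apart, with a rank correlation over genes of 0.971 and 0.972 with replicates 2 and 3, beside 0.995 between those replicates. Correlations between replicates of experiment 1 ran from 0.958 to 0.973 in the libraries labelled hira-1 and from 0.969 to 0.986 in Col-0. All 5 leaf mesophyll markers were detected in every library. Of 14 root markers, 4 to 9 were at 0 per library, PLT1, PLT2, EXPA7 and RHD6 in all 12, and together they reached 19.8 to 52.4 CPM (counts scaled by library size). The labels do not say whether replicates came from separate sets of plants, so p-values measure the spread between these libraries.

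The members took a large share of the transcripts. Counts divided by exon length and scaled to 1 fixed total in every library (TPM) gave summed shares of 20.9%, 17.7% and 18.7% in the Col-0 libraries of experiment 1. The shares were 20%, 16.5% and 17.8% in the libraries labelled hira-1, 12.3%, 14% and 15.0% in Col-0 of experiment 2, and 10.8%, 12.1% and 12.2% in fas2-4. Every fas2-4 library stood under every Col-0 library of its experiment, while the libraries labelled hira-1 overlapped theirs. By class, the fas2-4 separation held for the photosystem I antenna and for the subunits of both photosystems. The fas2-4 and Col-0 libraries overlapped for the major antenna (means 3.5% and 4.39%) and for the minor antenna (1.53% and 1.76%). The means in experiment 2 were 11.7% ± 0.82 in fas2-4 and 13.8% ± 1.4 in Col-0 (SD, n = 3, 2-sided exact permutation p = 0.1, the smallest that 3 against 3 allows). In experiment 1 they were 18.1% ± 1.8 and 19.1% ± 1.6 (exact permutation p = 0.6 without pairing). Libraries with the same replicate number deviated together in experiment 1, though the labels do not state a pairing. The library labelled hira-1 was below the Col-0 library of the same number in 3 of 3 cases, with a mean difference of -0.95 percentage points.

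**Figure D1:**
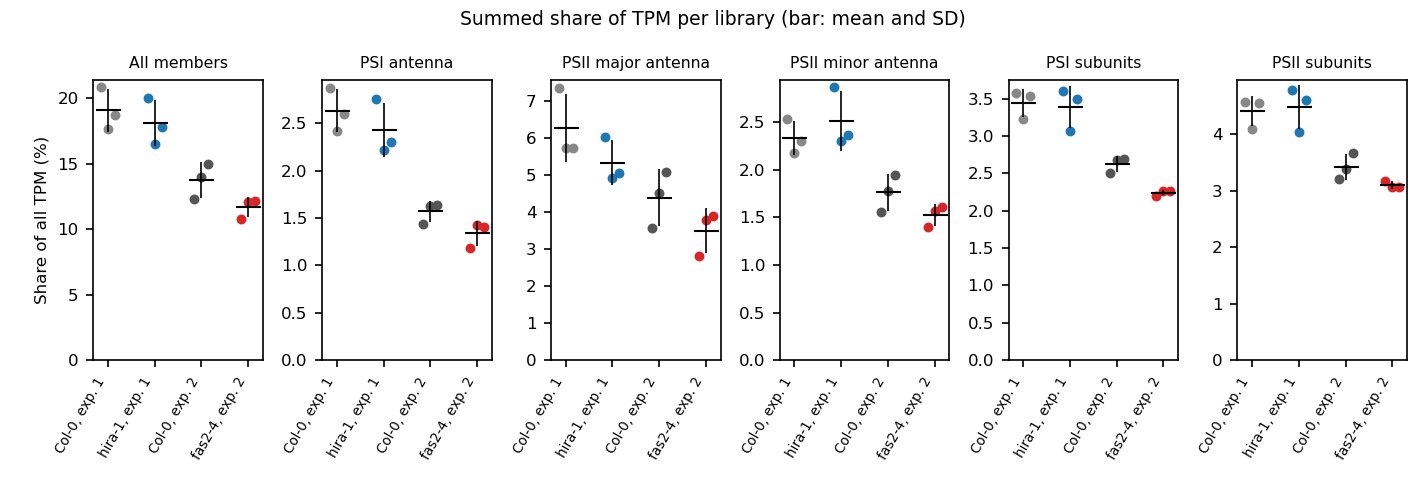
Summed share of all TPM (%) taken by the members and by each role class, with 1 point per library and the mean with SD in black, n = 3 per group. The fas2-4 points for all members (10.8% to 12.2%) lie below those of their Col-0 set (12.3% to 15.0%). In that panel both groups of experiment 2 lie below both groups of experiment 1, whereas in the major antenna panel the experiments overlap.

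Levels within each class are given in the deposited TPM values scaled with TMM, a library factor. The tables were normalized separately, so levels are compared within an experiment. Among the photosystem I antenna genes the highest was LHCA4 (AT3G47470), a chlorophyll-binding partner of LHCA1, at 11757, 9428 and 11874 in Col-0 of experiment 1. Labelled hira-1, it stood at 14923, 10720 and 14359, overlapping Col-0. Experiment 2 had it at 4563, 5322 and 5402 in Col-0 and 3727, 3898 and 3941 in fas2-4, each fas2-4 library below each Col-0 library. LHCA5 and LHCA6, which link photosystem I to the chloroplast NADH dehydrogenase-like complex, were far lower, with Col-0 means of 372 ± 67 and 304 ± 43 in experiment 1 (SD, n = 3).

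The highest member overall was LHCB1.3 (AT1G29930), a copy of the major trimeric antenna protein of photosystem II. Its TMM-scaled TPM in Col-0 of experiment 1 was 23890, 17621 and 19052. It was 14622, 12677 and 15209 where labelled hira-1, without overlap. Experiment 2 gave 16865, 22759 and 27427 in Col-0 and 14200, 16365 and 16694 in fas2-4, again without overlap. Its log2 fold change was -0.51 in both comparisons (SE 0.17, edgeR adjusted p = 0.0716 for hira-1 and SE 0.18, adjusted p = 0.117 for fas2-4), so it was not called in either.

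LHCB5 (AT4G10340), which encodes the monomeric antenna protein CP26, led the minor antenna genes at 10188, 8312 and 10666 in Col-0 of experiment 1. Labelled hira-1, its values were 16178, 10571 and 13791. These groups overlapped by a single library. Experiment 2 had it at 7215, 7494 and 8090 in Col-0 and 6188, 5163 and 5323 in fas2-4, all lower. The lowest tested member was LHCB7, at 39.4 ± 7.0 in Col-0 of experiment 1 and 65.5 ± 0.53 in Col-0 of experiment 2 (SD, n = 3).

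PSAK (AT1G30380), a photosystem I subunit on the side of the core that binds LHCA2 and LHCA3, led the photosystem I subunits. It was at 5892, 4835 and 6588 in Col-0 of experiment 1, 6928, 4837 and 7246 where labelled hira-1, 4388, 4745 and 4443 in Col-0 of experiment 2 and 4182, 3457 and 3173 in fas2-4. Only the fas2-4 libraries lay apart from their Col-0 set. PSBR (AT1G79040), a small photosystem II protein near the oxygen-evolving complex, led its class at 10298, 7522 and 11718 in Col-0 of experiment 1 and, where labelled hira-1, 9789, 7795 and 14880. It was at 8027, 8474 and 9863 in Col-0 of experiment 2 and 9058, 6535 and 6105 in fas2-4, and it overlapped in both comparisons.

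LHCB1.5 (AT2G34420, TAIR10.1 chromosome 2, 14522524 to 14523568) was listed at 0 in all 12 libraries. A count of 0 in a library allows up to 3 counts for counting error only. Every exon base of LHCB1.5 lies within a long non-coding RNA gene annotated on the opposite strand, AT2G08665, which was also at 0. Of 349 protein-coding genes whose exon bases are all overlapped by other genes in this way, 344 (98.6%) were at 0 in all 12 libraries, beside 2567 of 19954 (12.9%) with no overlapped base. Among the members, 26 have no overlapped exon base, 17 have some, and 3 of these are overlapped over most of their exon length. These 3 are LHCB1.5 (100%), PSAG (61.4%, by AT1G55673, listed at 0) and PSAH1 (53.3%). The counting program and its use of strand are not given in the sources used here, so the values of overlapped members are uncertain.

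The stretch before the transcription start was searched for letters known from light-regulated plant promoters, in 250 bases of RefSeq TAIR10.1 sequence for each member. The G-box, CACGTG, is bound by bZIP and bHLH factors such as HY5 and the PIFs. CCAATC is recognised by the GLK factors, GATAAG is the I-box core, and AAAATATCT is the evening element of clock-regulated genes. Both strands were searched, and no motif contains another. The promoters below are shown because LHCA4 and LHCB2.3 are among the members that differed most between the Col-0 sets, and LHCB1.2 and LHCB1.3 are copies of 1 gene cluster whose shares stood apart in the libraries labelled hira-1. Capitals mark a match to a motif, on either strand, and each sequence runs 5′ to 3′ towards the gene. LHCA4 is read from chr3:17495034-17495283 (minus strand), LHCB2.3 from chr3:10255656-10255905 (plus), LHCB1.2 from chr1:10473503-10473752 (minus) and LHCB1.3 from chr1:10477635-10477884 (plus).
LHCA4: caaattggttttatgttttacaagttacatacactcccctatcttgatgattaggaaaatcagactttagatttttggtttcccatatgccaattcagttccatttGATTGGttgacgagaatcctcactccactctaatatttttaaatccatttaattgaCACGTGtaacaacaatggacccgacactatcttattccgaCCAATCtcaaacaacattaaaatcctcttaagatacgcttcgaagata
LHCB2.3: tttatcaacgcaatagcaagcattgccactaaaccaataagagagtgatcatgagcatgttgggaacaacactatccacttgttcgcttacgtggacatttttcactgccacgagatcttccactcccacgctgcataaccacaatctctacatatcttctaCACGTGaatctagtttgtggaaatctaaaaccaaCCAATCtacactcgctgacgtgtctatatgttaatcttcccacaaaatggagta
LHCB1.2: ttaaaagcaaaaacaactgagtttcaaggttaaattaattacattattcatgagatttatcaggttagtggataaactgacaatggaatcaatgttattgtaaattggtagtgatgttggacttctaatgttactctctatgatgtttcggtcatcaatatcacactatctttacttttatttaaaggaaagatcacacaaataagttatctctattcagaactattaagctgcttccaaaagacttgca
LHCB1.3: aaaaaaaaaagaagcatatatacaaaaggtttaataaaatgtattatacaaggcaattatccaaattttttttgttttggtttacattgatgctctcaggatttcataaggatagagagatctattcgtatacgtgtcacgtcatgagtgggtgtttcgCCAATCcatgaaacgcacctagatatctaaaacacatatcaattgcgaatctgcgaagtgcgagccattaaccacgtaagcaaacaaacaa

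In LHCA4 and LHCB2.3 the G-box lies 88 to 83 bases before the start. CCAATC, also found as its reverse complement 144 to 139 bases before the start of LHCA4, follows it 48 to 43 bases before the start in LHCA4 and 54 to 49 bases before it in LHCB2.3. LHCB1.3 holds CCAATC 91 to 86 bases before its start, and the window of LHCB1.2 holds none of the motifs. LHCB4.1 also holds a G-box (74 to 69 bases before the start) followed by CCAATC (35 to 30 bases before it). Between the Col-0 sets LHCB4.1 stood at -0.39 (log2, edgeR adjusted p = 0.114) and was not called. Whether these motifs bear on the difference between the Col-0 sets was not tested. CCAATC was found in 11 of 43 member promoters (25.6%) and in 10.2% of all 27431 protein-coding promoters of that length, and the G-box in 9 (20.9%) and 6.49%. By class, CCAATC was in 5 of 9 major antenna promoters (LHCB1.3, LHCB1.5 and all LHCB2 copies) and in 0 of 12 photosystem I subunit promoters. The I-box core was in 9 members (20.9%, all promoters 12.3%), and the evening element in 1 (2.33%, all promoters 2.36%).

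In fas2-4, every tested member had a lower fitted level than in Col-0, but only 1 passed the test. A call is a Benjamini-Hochberg adjusted p under 0.05 from edgeR's quasi-likelihood test, adjusted over the whole table. Log2 fold changes ran from -0.67 to -0.22 with a median of -0.39, beside a median of 0.03 over all genes. All 42 lay below 0, where 46.5% of all genes did. The call count was 1 of 42 lower and 0 higher, beside 9.74% of all genes called, 2.96% lower and 6.78% higher. At an unadjusted p under 0.05, 28 members were lower, beside 10.5% of all genes. For 30 members no fas2-4 library reached the lowest Col-0 library in CPM, beside 14.2% of all genes.

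**Figure D2:**
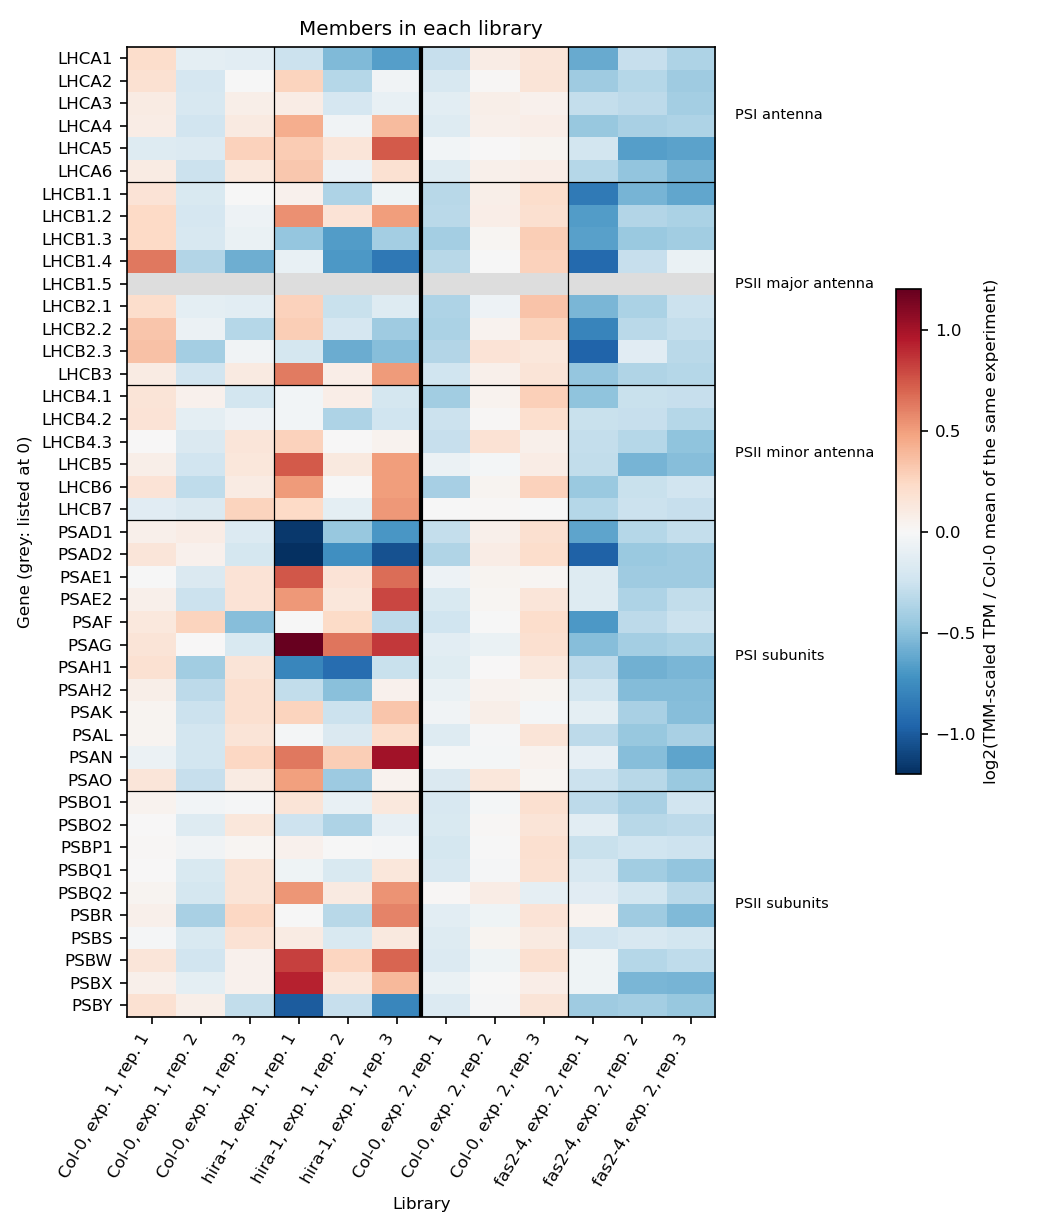
Level of each member (rows, by role class) in each library (columns), as the log2 ratio of its TMM-scaled TPM to the Col-0 mean of its own experiment. Blue is lower and red higher, and the colour scale stops at 1.2 in either direction. The fas2-4 columns are blue in nearly every row, and the columns labelled hira-1 hold both colours.

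The called member was LHCB1.1 (AT1G29920), another copy of the major antenna protein. Its TMM-scaled TPM was 6430, 8540 and 9367 in Col-0 and 4502, 5518 and 5277 in fas2-4. All fas2-4 libraries were lower, and the log2 fold change was -0.67 (edgeR, SE 0.16, adjusted p = 0.0359). LHCB1.1 kept its call in 2 of the 6 fits that left out a library, those without Col-0 replicate 1 and without fas2-4 replicate 1.

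By class in fas2-4, the median log2 fold change was -0.41 for the photosystem I antenna, where all 6 members had libraries that did not overlap, and -0.44 for the major antenna (4 of 8 without overlap). It was -0.33 for the minor antenna (4 of 6), -0.40 for the photosystem I subunits (11 of 12) and -0.27 for the photosystem II subunits (5 of 10). After LHCB1.1 the lowest values were -0.59 (SE 0.19) for PSAD2, a ferredoxin-docking subunit, and -0.51 for LHCB1.3. Next came LHCA5 at -0.50 (SE 0.15, adjusted p = 0.0725) and PSAH1, part of the docking site for mobile antenna on photosystem I, at -0.48 (SE 0.13, adjusted p = 0.0593). The values nearest to 0 belonged to photosystem II subunits. They were -0.22 (SE 0.12) for PSBS, the sensor protein of energy-dependent quenching, and -0.23 for both PSBQ2, an extrinsic subunit of the oxygen-evolving complex, and PSBW, a small subunit of the supercomplex.

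The number of calls in fas2-4 depended on the fit and on a single library. DESeq2 called 18 members lower (6.17% of all genes), and a correction for exon length called 13 (6.38% of all genes). Without fas2-4 replicate 1, 26 members were called lower, beside 13.8% of all genes, and without any other library 0 or 1 were called. The median of the members stayed between -0.48 and -0.32 in the fits that left out a library.

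Leaf mesophyll markers also lay lower in fas2-4. RBCS1A, a Rubisco small subunit gene, fell by 0.58 (adjusted p = 0.0344, SE 0.14) and PRK, phosphoribulokinase of the Calvin cycle, fell by 0.48 (adjusted p = 0.0307, SE 0.11) in log2 units. The other 3 of 5 markers were not called. Their summed level was 30121 to 33570 CPM in fas2-4 and 44812 to 48753 CPM in Col-0, without overlap. Root markers summed to 33.5 to 40.6 and 46.7 to 52.4 CPM. Of 4 tested root markers, only WOX5, expressed in the root quiescent centre, was called, higher by 2.1 (SE 0.45, adjusted p = 0.0233) at mean levels of 0.621 CPM in fas2-4 and 0.144 CPM in Col-0. The shoot meristem gene STM was higher by 1.18 (SE 0.17, adjusted p = 0.00469). The 8 markers of other shoot cells, STM among them, summed to 305 to 378 CPM in fas2-4 and 322 to 363 CPM in Col-0. The part of these markers in the members' values was not tested. In bulk seedlings, fewer cells of a type and less RNA per cell cannot be told apart.

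Other genes of the pathway were read from 7 lists of 66 genes. In fas2-4, 0 were called higher and 4 lower, beside 6.78% and 2.96% of all genes. Without fas2-4 replicate 1, 37 were called lower, and without any other library 0 or 1. In the fit with all libraries of experiment 2, 59 of 66 lay below 0 with a median of -0.30. The called genes were CGA1, a GATA factor that promotes chloroplast development (-1.09, SE 0.25, adjusted p = 0.0289), OHP2, a one-helix antenna-like protein of photosystem II assembly (-0.51, SE 0.13, adjusted p = 0.0392), HCF136, a photosystem II assembly factor (-0.49, SE 0.13, adjusted p = 0.0445), and Y3IP1, a photosystem I assembly factor (-0.40, SE 0.10, adjusted p = 0.047). No gene was called in the lists of electron transfer (0 of 11), ATP synthase (0 of 3), antenna protein delivery (0 of 5) and antenna kinases and quenching (0 of 7). Medians were -0.36 for assembly and repair (17 genes) and -0.13 for the regulators (15 genes).

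In the libraries labelled hira-1, members moved in both directions and few passed the test. PSAG rose, PSAD1 and PSAD2 fell, and 39 of 42 were not called. This made 1 higher and 2 lower, beside 13.7% of all genes called, 6.94% higher and 6.8% lower. Log2 fold changes ran from -1.08 to 1.05 with a median of 0.02, beside -0.02 over all genes. In CPM the libraries did not overlap for 4 members higher (19.4% of all genes) and 5 lower (19.2%).

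PSAG (AT1G55670, chromosome 1, 20802670 to 20803449) encodes a membrane subunit of photosystem I at the contact with the antenna belt. Its TMM-scaled TPM was 791, 712 and 625 in Col-0. Where labelled hira-1 it was 2040, 1108 and 1278, above Col-0 throughout. The log2 fold change was 1.05 (edgeR, SE 0.24, adjusted p = 0.0321), the 1 call in the higher direction in either mutant.

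PSAD1 (AT4G02770) and PSAD2 (AT1G03130) encode copies of the stromal subunit that docks ferredoxin. PSAD1 was at 2433, 2491 and 2090 in Col-0 and at 1046, 1710 and 1442 where labelled hira-1 (log2 fold change -0.75, SE 0.20, adjusted p = 0.0415). PSAD2 was at 1245, 1167 and 976 in Col-0 and at 386, 680 and 548 where labelled hira-1 (log2 fold change -1.08, SE 0.22, adjusted p = 0.0263). Both genes were lower in every library labelled hira-1, and the counts of both copies summed gave -0.84 (SE 0.20, adjusted p = 0.0349). PSAE, the neighbouring ferredoxin-docking subunit, had a summed value of 0.54 (SE 0.20, adjusted p = 0.0923) and was not called.

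The hira-1 calls also depended on single libraries. Without hira-1 replicate 2, 10 members were called higher (12.7% of all genes) and 3 lower, and without Col-0 replicate 3, 2 were called higher and 3 lower. Shares of all genes are not given for these other counts, so they are not read as results about the members. Without any of the other 4 libraries, no member was called.

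**Figure D3:**
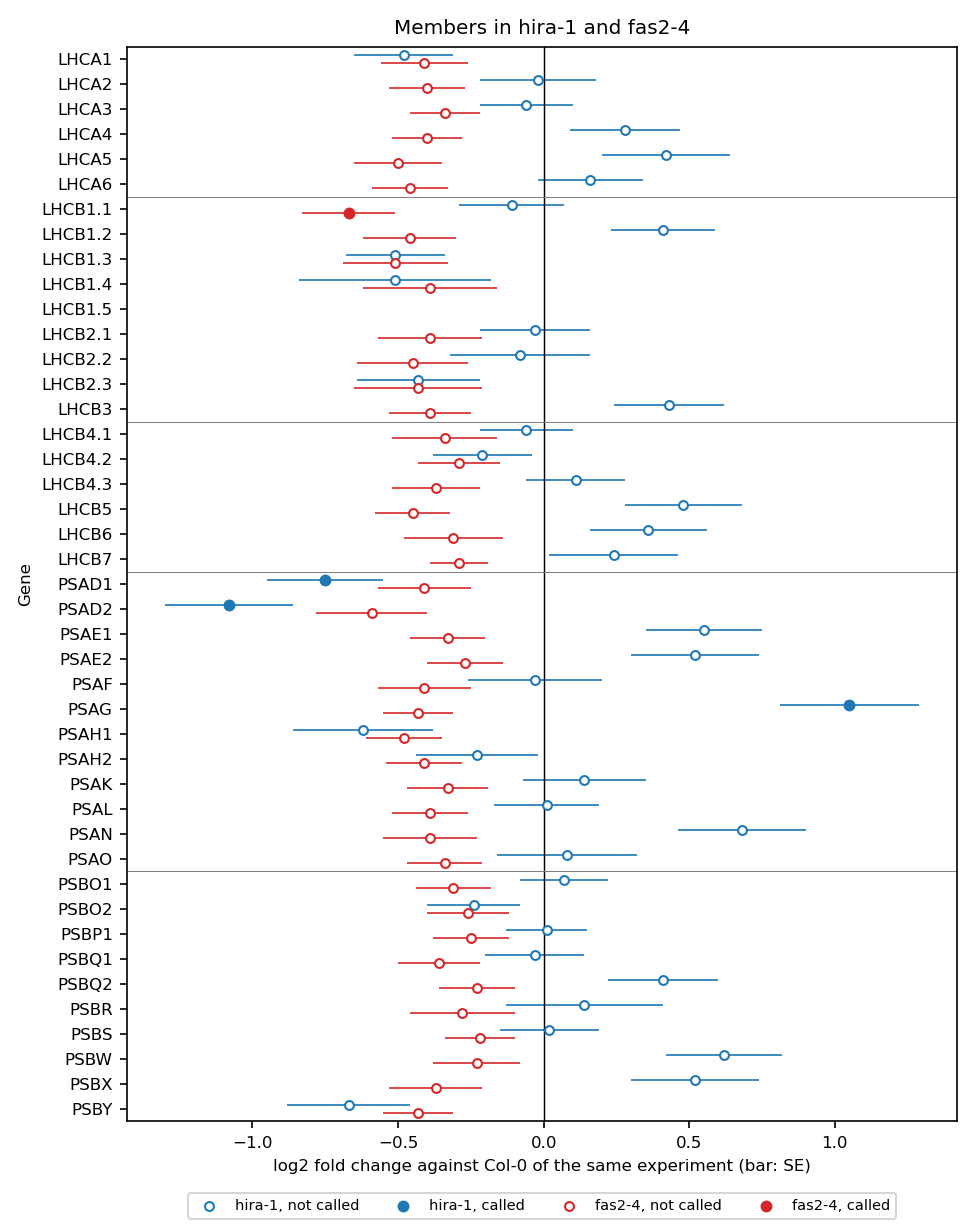
Log2 fold change of each tested member against Col-0 of its own experiment, with SE, in the libraries labelled hira-1 (blue) and in fas2-4 (red). Filled points were called. All red points lie left of 0, between -0.67 and -0.22, and the blue points spread from -1.08 to 1.05.

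Fold changes in the libraries labelled hira-1 depended on exon length over the whole transcriptome. The median over all genes was 0.62 for exon lengths under 800 bases, 0.42 from 800 to 1200, 0.20 from 1200 to 1600, -0.08 from 1600 to 2500 and -0.62 above 2500. The members are short, at 607 to 1808 bases, so the genes nearest to them in length lie above 0. The 7 shortest members had a median of 0.52, the 10 from 800 to 1200 bases 0.05, and the 23 from 1200 to 1600 bases -0.03. Across the 42 members, fold change and log2 length had Pearson's r of -0.32 and Spearman's rho of -0.34, given as a description of genes that share libraries. In fas2-4, r was -0.03.

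With a correction for this trend, 0 members were called higher and 9 lower, beside 5.05% and 5.19% of all genes, and the median was -0.21. PSAG was then at 0.55 (SE 0.26, adjusted p = 0.186) and no longer called. The 9 were PSAD2 (-1.48), PSAD1 (-1.07), PSBY, a small photosystem II subunit (-0.94), PSAH1 (-0.87) and PSAH2 (-0.79). The others were LHCB1.3 (-0.79), LHCA1 (-0.73), the manganese-stabilising protein gene PSBO2 (-0.46) and PSBQ1 (-0.41). PSAH as a summed family was at -0.79 (SE 0.14, adjusted p = 0.0154).

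**Figure D4:**
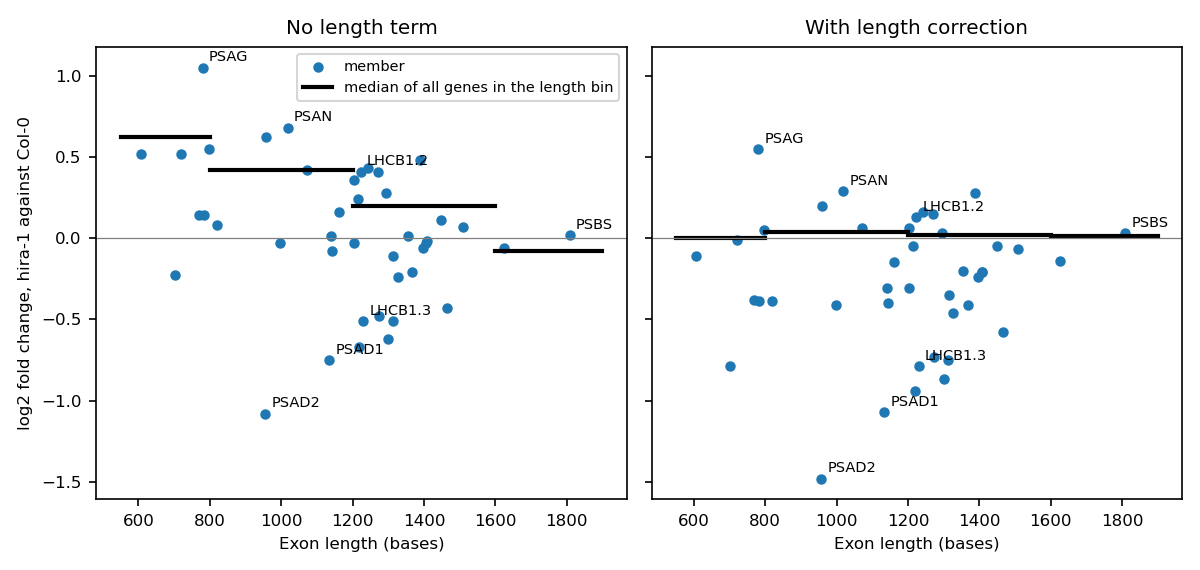
Log2 fold change of the members in the libraries labelled hira-1 against exon length in bases, without (left) and with (right) the length correction. Black bars are the median of all genes in the length bin, which falls from 0.62 to -0.08 on the left and lies near 0 on the right, where PSAG moves from 1.05 to 0.55 and PSAD2 from -1.08 to -1.48.

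Replicates with the same number deviated together in experiment 1, and a fit with the number as a block called more genes throughout. The labels do not state this pairing, which is read from the same data, so p-values of the block depend on that reading. It called 13 members higher and 10 lower, beside 23.9% and 27.3% of all genes. PSAG, PSAD1 and PSAD2 kept their directions (1.01, -0.77 and -1.10). PSAN, a lumenal photosystem I subunit, stood at 0.65 (SE 0.10, adjusted p = 4.24e-06) and PSBW at 0.60 (SE 0.10, adjusted p = 1.3e-05). With the block and the length correction together, 4 members were called higher (PSAG 0.51, PSAN 0.28, LHCB5 0.27, PSBW 0.20) and 23 lower, beside 19.8% and 18.3% of all genes.

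Families with several copies were also read as shares of their total. LHCB1.1, LHCB1.2 and LHCB1.3 lie side by side on chromosome 1, from 10472280 (start of the LHCB1.2 interval) to 10479114 (end of LHCB1.3), and their coding sequences are 95.6% to 96.4% identical. Shares were taken from TMM-scaled TPM within a library, so scaling between libraries cancels. LHCB1.2 held 17.2%, 17.3% and 17.5% of the LHCB1 total in Col-0 of experiment 1 and 26.7%, 25.8% and 26.8% where labelled hira-1. LHCB1.3 held 50%, 50.4% and 50.1% in Col-0 and 38.3%, 41.9% and 41.4% where labelled hira-1. The groups stood far apart for both copies, with exon lengths of 1223 and 1230 bases. The means were 26.4% ± 0.55 against 17.3% ± 0.17 for LHCB1.2 and 40.5% ± 1.9 against 50.2% ± 0.18 for LHCB1.3 (SD, n = 3, 2-sided exact permutation p = 0.1 each, the smallest possible). The counts of all LHCB1 copies summed gave -0.20 (log2, SE 0.18, adjusted p = 0.428).

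In fas2-4 the LHCB1.2 share was 9.38% ± 0.21 beside 8.99% ± 0.44 in its Col-0 set, and LHCB1.3 was 65.8% ± 1.0 beside 64.2% ± 1.3, with overlap (SD, n = 3). The LHCB1.2 share also stood apart between the Col-0 sets, at 17.2% to 17.5% in experiment 1 and 8.49% to 9.29% in experiment 2. The LHCB1.1 share was 21.3% ± 0.56 in fas2-4 and 23.5% ± 0.90 in Col-0, without overlap (SD, n = 3, exact permutation p = 0.1). Near-identical copies can trade reads in counting, so these shares are uncertain.

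Groups did not overlap for the shares of 10 of 20 copies, in 5 of 8 families, in the libraries labelled hira-1 and of 3 of 20 copies, in 2 of 8 families, in fas2-4. The levels of single genes, another quantity, did not overlap in 19.2% lower and 19.4% higher of all genes in the first comparison, and in a family of 2 copies the shares mirror each other. Copy shares were not taken for other gene families. The counts therefore set neither the members apart from other genes nor the mutants apart from each other. In the libraries labelled hira-1 the mean share of PSBQ1 was 49.3% ± 2.6 beside 56.7% ± 0.48, that of PSBO1 74.6% ± 1.2 beside 70.4% ± 2.0, that of PSAD2 27.6% ± 0.76 beside 32.5% ± 1.1 and that of PSAH1 16.1% ± 0.78 beside 20.2% ± 1.2. PSAD2 was also the copy with the lower share in fas2-4, at 26.7% ± 1.7 beside 29.2% ± 0.83 (SD, n = 3). Shares of LHCB2, LHCB4 and PSAE copies overlapped in both comparisons. With 40 shares tested, the smallest Benjamini-Hochberg adjusted value of the exact permutation tests was 0.308.

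**Figure D5:**
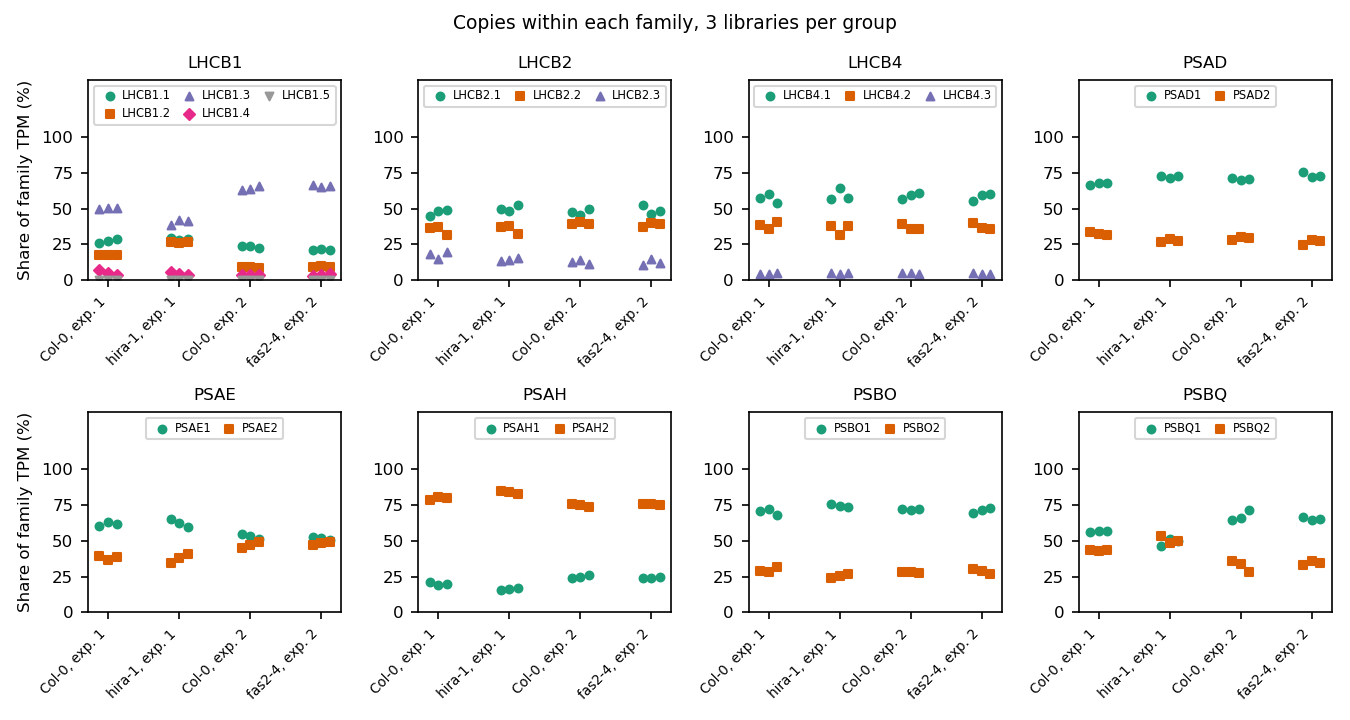
Share of the family's TMM-scaled TPM (%) held by each copy in each library, 1 panel per family and 3 points per group. LHCB1.2 (orange squares, first panel) stands at 17.2% to 17.5% in Col-0 of experiment 1, at 25.8% to 26.8% in the libraries labelled hira-1 and under 10% in experiment 2.

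Of the 66 other pathway genes, 2 were called higher and 10 lower in the libraries labelled hira-1, beside 6.94% and 6.8% of all genes, and with the length correction 1 and 13, beside 5.05% and 5.19%. Without Col-0 replicate 1 or 2 or hira-1 replicate 1 none was called, and without hira-1 replicate 3, 0 higher and 3 lower. Without Col-0 replicate 3 there were 3 higher and 11 lower, and without hira-1 replicate 2, 5 and 11. CPSRP54, which delivers antenna proteins to the thylakoid as part of the chloroplast signal recognition particle, fell by 1.41 (SE 0.24, adjusted p = 0.0215). Among regulators, SIG2, SIG6 and SIG5, sigma factors of the plastid RNA polymerase, fell by 1.76, 1.08 and 0.70 on the log2 scale (SE 0.38, 0.18 and 0.18). FTSH2, FTSH1 and FTSH8, subunits of the protease that clears damaged photosystem II protein, fell by 1.0, 0.95 and 0.85. PETE1, a plastocyanin gene, and STN8, a kinase of photosystem II core proteins, each fell by 0.73, and ZEP, zeaxanthin epoxidase, fell by 0.68. The exons of SIG5 (2635 bases), ZEP (2605), FTSH1 (2573), FTSH2 (2660) and FTSH8 (2900) exceed 2500 bases, where the median of all genes was -0.62. Those of CPSRP54 (2022), SIG2 (2049), SIG6 (2044) and STN8 (1895) lie where it was -0.08, and those of PETE1 (1048) and ATPD (1151) where it was 0.42. ATPD, a chloroplast ATP synthase subunit, rose by 0.75 (SE 0.20, adjusted p = 0.0427). GUN4, which stimulates magnesium chelatase, rose by 1.67, but at means of only 0.823 and 2.64 CPM and with 73% of its exon bases overlapped by another gene. No stress-type antenna-like gene was called (0 of 8). Leaf mesophyll markers were not called (0 of 5) and summed to 28979 to 38094 CPM beside 34371 to 44331 CPM in Col-0.

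The effects of the mutants were then compared directly, as the fas2-4 effect minus the hira-1 effect. Each mutant was measured only in its own experiment, so mutant and experiment cannot be told apart in this difference. Over all genes 11.6% were called, 5.73% lower and 5.84% higher. Of the members, 8 were called lower, 0 higher and 34 neither, with a median difference of -0.41 beside 0.06 over all genes. DESeq2 called 13 lower (10.8% of all genes), the block called 16 (15% of all genes) and the length correction 3 (6.26% of all genes). Leaving out a library gave 1 to 15 calls, with 15 without hira-1 replicate 2 (9.77% of all genes) and 1 without Col-0 replicate 2 of experiment 1.

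PSAG differed most. It was at 563, 583 and 703 in Col-0 of experiment 2 and 433, 466 and 475 in fas2-4, all lower, whereas it was higher in every library labelled hira-1. The difference was -1.50 on the log2 scale (SE 0.29, edgeR adjusted p = 0.011) and was called in all 12 fits that left out a library. With the length correction it was not called, and 61.4% of the exon bases of PSAG are overlapped by another gene. The other photosystem I subunits called were PSAN, with a difference of -1.08 (SE 0.28, adjusted p = 0.0309), and PSAE1, with -0.89 (SE 0.24, adjusted p = 0.033).

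PSAN (AT5G64040) was at 3986, 3577 and 4963 in Col-0 of experiment 1 and 6486, 5123 and 8395 where labelled hira-1. Experiment 2 had it at 3916, 3924 and 4107 in Col-0 and 3725, 2795 and 2572 in fas2-4. PSAE1 (AT4G28750) was at 1874, 1673 and 2104 in Col-0 of experiment 1, 3153, 2107 and 2990 where labelled hira-1, 1302, 1394 and 1385 in Col-0 of experiment 2 and 1222, 1009 and 1015 in fas2-4. Neither gene's groups overlapped in experiment 2, where fas2-4 was lower. In experiment 1 PSAN did not overlap, while the lowest PSAE1 value labelled hira-1 lay just above the highest in Col-0, and in CPM these groups overlapped.

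PSBW (AT2G30570), the photosystem II subunit of the 8, was at 4517, 3491 and 4235 in Col-0 of experiment 1 and 7219, 4889 and 6640 where labelled hira-1, all higher. In experiment 2 it was at 2634, 2836 and 3376 in Col-0 and 2843, 2330 and 2382 in fas2-4, which overlapped. Its difference was -0.85 (SE 0.25, adjusted p = 0.043).

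The antenna genes called were LHCB5 with a difference of -0.94 (SE 0.24, adjusted p = 0.0273), LHCA5 with -0.92 (SE 0.27, adjusted p = 0.0429), LHCB1.2 with -0.89 (SE 0.24, adjusted p = 0.0356) and LHCB3 with -0.83 (SE 0.23, adjusted p = 0.0383). LHCA5 (AT1G45474) was at 334, 333 and 450 in Col-0 of experiment 1 and 461, 411 and 622 where labelled hira-1, with overlap. Experiment 2 gave 413, 424 and 432 in Col-0 and 363, 267 and 271 in fas2-4, all lower. LHCB1.2 (AT1G29910) was at 8198, 6041 and 6656 in Col-0 of experiment 1 and 10186, 7803 and 9832 where labelled hira-1, with overlap. In experiment 2 it was at 2478, 3280 and 3541 in Col-0 and 1950, 2423 and 2383 in fas2-4, all lower. LHCB3 (AT5G54270), the third protein type of the antenna trimers, was at 9597, 7656 and 9676 in Col-0 of experiment 1 and 13872, 9507 and 12827 where labelled hira-1, with overlap. In experiment 2 it was at 5035, 6195 and 6634 in Col-0 and 4329, 4640 and 4689 in fas2-4, all lower.

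With the length correction LHCB5 (-0.76), PSAN (-0.72) and LHCA5 (-0.59) stayed called, and PSAG stood at -1.0 (SE 0.34, adjusted p = 0.0654). Of the other pathway genes, 2 were called higher and 10 lower in the difference, beside 5.84% and 5.73% of all genes, and leaving out a library gave 0 to 6 higher and 1 to 15 lower. From the lists with several calls, PETE2, FD2 and PGRL1A of electron transfer had -0.80, -0.72 and -0.64, ATPG and ATPD of the ATP synthase -1.05 and -1.01, and LIL3:2 and OHP2 -0.82 and -0.83. Single calls were PBCP, the phosphatase that acts on photosystem II core proteins (-0.91), THF1 (-0.93) and CPSRP54 (1.01), and among the regulators CGA1 (-1.48) and SIG5 (0.75).

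The Col-0 sets also differed, which bears on levels set across experiments. Over all genes 24.4% were called, 13.2% lower and 11.2% higher in experiment 2. Of the members 25 were called lower in experiment 2, 0 higher and 17 neither, with a median of -0.64 beside 0.01 over all genes. In CPM the libraries did not overlap for 30 members lower (24.8% of all genes) and 2 higher (25.1%). The experiment and its Col-0 set cannot be told apart, and the mutants' own comparisons do not use this contrast.

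The major antenna differed most between the Col-0 sets, with 7 of 8 members called lower and a median of -1.02. LHCB2.3 had -1.60 (SE 0.24, edgeR adjusted p = 0.000529), LHCB1.2 -1.49 (SE 0.17, adjusted p = 0.000107), and of the photosystem I antenna LHCA4 had -1.43 (SE 0.15, adjusted p = 6.03e-05). LHCB1.3 was the exception among the major antenna, at -0.18 (SE 0.17, adjusted p = 0.49). Of the other classes, 3 of 6 photosystem I antenna, 3 of 6 minor antenna, 6 of 12 photosystem I subunits and 6 of 10 photosystem II subunits were called lower. The members above 0 were PSAH1 (0.54), LHCB7 (0.41) and PSAH2 (0.13), none called. Of the 66 other pathway genes 10 were called higher and 19 lower in experiment 2, beside 11.2% and 13.2% of all genes, and leaving out a library gave 5 to 8 and 14 to 19. Among regulators the smallest adjusted p belonged to CGA1 (3.40), PIF4, a phytochrome-interacting factor (-3.48), HY5, a light-response factor (2.3), and SIG5 (1.33). Lower calls included PSB27 (-1.30), PSA2 (-0.66), LQY1 (-0.66) and DEG1 (-0.53) of assembly and repair. Those of electron transfer included PGRL1A (-0.70), PETC (-0.80), PETE2 (-0.74) and FD1 (-0.64), and ATPG and ATPD of the ATP synthase had -0.77 and -0.76. ZEP (-0.84), KEA3 (-0.81), STN8 (-0.47) and ALB3 (-0.57) were lower, and LTD (0.77), CPSRP54 (0.72), ELIP1 (0.89) and ELIP2 (0.87) were higher.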

How the data were processed

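Counts and TMM-scaled TPM values were analysed for 12 libraries, in 4 groups of 3. The submitters' processing notes name fastp 0.23.4, HISAT2 2.2.1 and the TAIR10 build, while the program that counted reads, its annotation and its strand setting are not given in the sources used here. For each experiment the authors deposited raw read counts per gene and TMM-scaled TPM, a length-scaled score. TPM recomputed from the deposited counts and reference exon lengths matched within 0.5% for 99.3% to 99.5% of well-counted genes (minimum 200) per library. All 24 value columns were used.

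After a low-count filter (filterByExpr, minimum 10) and TMM scaling, all remaining genes were tested with the robust quasi-likelihood fit of edgeR 4.0.16 (R 4.3.3), 2-sided, with SE taken as the log2 fold change over the square root of F. Each adjusted p of a gene is a Benjamini-Hochberg value over all genes tested, called under 0.05. Each mutant was tested within its experiment, and the difference and the Col-0 contrast over all 12 libraries. Alternatives were RLE and upper-quartile scaling, TMM without the members, no filter, DESeq2 1.42.0, limma 3.58.1 on log2 of TMM-scaled TPM plus 1, a per-library loess length correction (span 0.5), a replicate block, both together, a fit over all libraries, and each library left out. Deviations of same-numbered libraries correlated at 0.35, 0.62 and 0.72 in experiment 1, where the highest value between unlike numbers was 0.19. The labels do not state a pairing. It is read from these same data, so p-values from the block depend on that reading.

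Per-library values were printed for members called in a mutant comparison or in the difference and for the highest Col-0 member of each class, and from other lists up to 4 called genes with the smallest adjusted p. Members and lists were chosen with earlier results of these data known. Positions, promoters and lengths come from RefSeq TAIR10.1, where all 43 members matched by identifier.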

Additional observations from a re-analysis of the deposited data

Results flagged for a closer look

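For 8 members the effect of fas2-4 differed from that of the libraries labelled hira-1. The difference itself was tested with edgeR's quasi-likelihood fit over 12 libraries. Because each mutant was measured only in its own experiment, mutant and experiment cannot be told apart in it. The fas2-4 effect minus the hira-1 effect was -0.92 for LHCA5, -0.89 for LHCB1.2, -0.83 for LHCB3 and -0.94 for LHCB5 among the antenna genes, on the log2 scale. It was -0.89 for PSAE1, -1.50 for PSAG, -1.08 for PSAN and -0.85 for PSBW among the subunit genes. The fas2-4 log2 fold changes of these genes ran from -0.50 (LHCA5) to -0.23 (PSBW). Those in the libraries labelled hira-1 ran from 0.41 (LHCB1.2) to 1.05 (PSAG), of which only PSAG was called in its own comparison. The median difference over all genes also varied with exon length. It was -0.51 under 800 bases, the range of PSAG and PSAE1. It was -0.36 from 800 to 1200 bases (LHCA5, PSAN and PSBW) and -0.16 from 1200 to 1600 (LHCB1.2, LHCB3 and LHCB5). Whether length causes the differences of these genes was not tested. With the length correction 3 of the 8 stayed called, LHCA5, LHCB5 and PSAN.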

How the results depend on the processing

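In the libraries labelled hira-1, 1 member was called higher and 2 lower. The replicate block gave 13 and 10, the length correction 0 and 9, both together 4 and 23, a fit over all 12 libraries 5 and 6, and DESeq2 3 higher. For the other lists (2 higher, 10 lower) the block gave 16 and 30, length 1 and 13, and both 10 and 33. There the fit over 12 libraries gave 5 and 17, and DESeq2 4 higher. Where a setting is named with a single direction, the other direction is left out and is not to be read as 0. Family sums (0 and 1) became 1 and 2 with the block, 2 lower with length, 5 lower with both, and 1 higher in the fit over 12 libraries. The median of 0.02 became -0.21 with length and -0.22 with both. In fas2-4, 1 member was called lower, and 2 were with the block, 13 with length (6.38% of all genes), 27 with both and 18 by DESeq2 (6.17% of all genes). The share of all genes with the block or with both is not given for fas2-4. Counts without such a share, here or above, are not read as results about the members, since a fit can call more genes throughout. Other lists (4 lower) gave 21 with length, 27 with both, 20 by DESeq2 and 2 by limma. Family sums (0 lower) gave 1 with length and 5 with both, and 1 family had a single gene called. In the difference (0 higher, 8 lower), the block gave 16 lower, length 3, DESeq2 13, and both together 2 higher. Other lists (2 and 10) gave 1 higher with no filter, 12 and 19 with the block, 10 higher with both, and 4 and 16 by DESeq2. Family sums (0 and 1) gave 2 lower with the block, 0 with length, 1 higher and 0 lower with both, and 2 families had a single gene called. The median of -0.41 became -0.19 with length and -0.18 with both. Between the Col-0 sets, members called higher (0) became 2 with the block, 2 with length, 2 with both and 1 by DESeq2, and family sums higher (0) became 1 with both. The PSAH2 share difference of 4.06 points became 5.64 from raw counts, an alternative chosen after seeing the data. The cause of these moves was not tested.

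Leaving out a library gave, for hira-1, 0 to 10 members higher and 0 to 3 lower, 0 to 5 and 0 to 11 in other lists, 0 to 1 family sums either way, and a median of -0.02 to 0.13. For fas2-4 it gave 0 to 26 members lower, 0 to 37 in other lists, 0 to 3 family sums, and a median of -0.48 to -0.32. For the difference it gave 1 to 15 members lower, 0 to 6 higher and 1 to 15 lower in other lists, 0 to 2 family sums lower, and a median of -0.51 to -0.31. Between the Col-0 sets it gave 0 to 1 members higher and 19 to 25 lower, 5 to 8 and 14 to 19 in other lists, 3 to 6 family sums lower, and a median of -0.74 to -0.57. No value changed sign among called ones, 431 summary values stayed and 145 moved, and of the values of named members 150 kept their side of the threshold and 82 lost it. PSBW in the difference stood at -0.83 with no filter (edgeR adjusted p = 0.0504). Same-numbered deviations in experiment 2 correlated at -0.06, 0.27 and -0.03, so no pairing by number was read there. Limma was not run between the Col-0 sets, whose tables were normalized separately.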
